A study of Mus musculus with 12 samples.

Results

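The 49 genes described here encode the contractile apparatus of skeletal muscle, its calcium and energy supply, and the transcription factors that make it. They were chosen by name, found by matching the deposited Ensembl identifiers to GENCODE mouse M21 symbols, and all 49 were present among 53379 deposited identifiers and among the 23635 genes that passed the expression filter. By role they were 11 fast fibre sarcomere genes, 7 slow fibre and cardiac-shared sarcomere genes, 3 developmental myosins, 8 giant and Z-disc proteins, 9 calcium handling genes, 6 energy metabolism genes and 5 myogenic factors.

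RNA was sequenced from whole skin of 3-month-old mice of C57BL/6 & B6D2 background in 4 groups of 3 libraries. The groups were Nf1-KO injured skin, control injured skin, Nf1-KO uninjured skin and control uninjured skin, with injured skin taken 14 days post-injury. Nf1-KO mice carried Prss56Cre, R26tdTom and Nf1flox/-, and control mice carried Prss56Cre and R26tdTom, so that every group held the Cre driver and the fluorescent reporter. Cre is driven from Prss56, a gene that marks boundary cap cells, a transient population at the nerve roots of the embryo that gives rise to glia. As the genotype is written, an Nf1 allele is null in every cell of the Nf1-KO mice and the other is deleted only where Cre was active.

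Skeletal muscle fibres contract when calcium, released from the sarcoplasmic reticulum, lets myosin heavy chains pull on actin filaments under the control of troponin. Fast and slow fibres use different genes for the same parts, and embryonic and perinatal myosins appear in developing or regenerating fibres before the adult ones. In muscle formation, Pax7 marks satellite cells, Myf5 and Myod1 mark myoblasts, Myog drives differentiation and Myf6 is found in maturing and adult fibres. Mouse skin carries a thin sheet of striated muscle under the dermis, the panniculus carnosus, so these transcripts have a known source in a skin sample.

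The promoters of 6 members are shown because these genes stand for the patterns described below: fast fibre actin (Acta1), muscle creatine kinase (Ckm), slow and cardiac troponin C (Tnnc1), the differentiation factor Myog, and Myh7 and Pax7, which were not called in either injury comparison. Each is the 250 bases before the RefSeq start site on GRCm38.p6, 5′ to 3′, with every CANNTG in capitals, the E-box bound by myogenic factors.
Acta1 promoter, chr8:123894776-123895025, minus strand: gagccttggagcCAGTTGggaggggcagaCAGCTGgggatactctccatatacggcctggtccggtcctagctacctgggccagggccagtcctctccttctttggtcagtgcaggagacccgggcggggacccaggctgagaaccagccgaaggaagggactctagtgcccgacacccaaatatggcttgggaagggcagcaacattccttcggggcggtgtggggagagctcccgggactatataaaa
Ckm promoter, chr7:19410844-19411093, plus strand: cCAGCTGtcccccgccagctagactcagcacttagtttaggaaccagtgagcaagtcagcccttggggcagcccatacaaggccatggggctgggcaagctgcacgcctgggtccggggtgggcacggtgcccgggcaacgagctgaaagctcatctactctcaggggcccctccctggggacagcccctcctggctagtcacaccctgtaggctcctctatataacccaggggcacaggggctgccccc
Tnnc1 promoter, chr14:31208062-31208311, plus strand: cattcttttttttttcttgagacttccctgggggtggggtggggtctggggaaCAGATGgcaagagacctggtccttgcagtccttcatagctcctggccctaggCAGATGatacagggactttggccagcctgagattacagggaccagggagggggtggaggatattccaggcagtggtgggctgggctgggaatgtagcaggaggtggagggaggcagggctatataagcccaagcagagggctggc
Myog promoter, chr1:134289754-134290003, plus strand: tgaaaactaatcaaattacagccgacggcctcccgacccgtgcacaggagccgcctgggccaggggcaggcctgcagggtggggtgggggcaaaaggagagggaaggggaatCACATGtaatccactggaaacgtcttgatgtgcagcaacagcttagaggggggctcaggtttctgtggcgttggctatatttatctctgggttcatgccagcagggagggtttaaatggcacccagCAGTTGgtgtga
Myh7 promoter, chr14:54994627-54994876, minus strand: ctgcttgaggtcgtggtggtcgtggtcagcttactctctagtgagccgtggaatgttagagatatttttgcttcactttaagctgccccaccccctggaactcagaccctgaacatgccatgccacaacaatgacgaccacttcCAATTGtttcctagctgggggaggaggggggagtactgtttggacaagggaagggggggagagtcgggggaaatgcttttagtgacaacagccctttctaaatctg
Pax7 promoter, chr4:139832969-139833218, minus strand: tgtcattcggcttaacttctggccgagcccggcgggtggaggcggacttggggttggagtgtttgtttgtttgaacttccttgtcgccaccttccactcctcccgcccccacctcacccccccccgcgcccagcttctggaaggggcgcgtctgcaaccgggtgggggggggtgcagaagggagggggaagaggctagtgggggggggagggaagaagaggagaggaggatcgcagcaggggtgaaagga
Acta1, Tnnc1 and Myog each held 2 such E-boxes in this window, Ckm and Myh7 held 1 each and Pax7 held 0. RefSeq promoters were matched for 36 of the 49 members, in 44 promoters. CANNTG, read on both strands, occurred in 35 of these 44 promoters (79.5%) and in 66.2% of all 32851 promoters of the table. The form CAGCTG, which is contained in CANNTG, occurred in 18 of the 44 (40.9%) and in 13.0% of all. The MEF2 consensus occurred in 1 of the 44, that of Ttn (2.27%), and in 0.508% of all. A match describes letters in the window and not a bound site. The members not matched in that table were Tnnt3, Ampd1, Tnni2, Myot, Tcap, Myf6, Actn3, Sln, Myoz1, Trdn, Myod1, Jph1 and Neb.

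Levels are given in CPM, the counts of a gene in 1000000 counts of its library after TMM scaling. Those of Nf1, Xist, Ddx3y and the receptor genes use raw library totals, without TMM scaling. Library totals ran from 12681653 to 16809687 counts in injured skin, against 8817013 to 15521143 counts in uninjured skin. Nf1 itself measured 8.14 to 14.1 CPM in Nf1-KO injured libraries, against 8.98 to 14.8 CPM in control injured libraries, and 8.96 to 11.1 CPM in Nf1-KO uninjured libraries, against 9.41 to 17.2 CPM in control uninjured libraries. These ranges of Nf1 overlapped between the genotypes in each state of the skin. Several features of the libraries moved with the state of the skin, and their part in the results below was not tested except where a value is given. Xist measured 436 to 627 CPM in injured libraries, against 0.709 to 2.95 CPM in uninjured libraries. Ddx3y, a Y-linked gene, measured 0 to 0.0595 CPM in injured libraries, against 68.2 to 93.3 CPM in uninjured libraries, so injury and sex cannot be told apart. Olfactory and vomeronasal receptor genes, which serve as a measure of background, gave 0.00229 to 0.0533 CPM per kb in injured libraries, against uninjured values of 0.0953 to 0.337 CPM per kb, and were highest in control uninjured libraries 1 and 2. Ribosomal RNA-like genes took 1.75% to 4.21% of counts in injured libraries, against 0.931% to 2.26% in uninjured libraries. All 9 growing hair follicle genes found and all 10 white adipocyte genes were called higher in injured skin of both genotypes. Summed hair follicle CPM ran from 8789 to 29330 in injured libraries, against 28.6 to 103 in uninjured libraries. Summed white adipocyte CPM ran from 1342 to 3449 in injured libraries, against 68.3 to 381 in uninjured libraries. Of 6 basal keratinocyte genes, which mark the epidermis and were high in every library (7499 to 24770 summed CPM), 5 were called lower in injured skin of both genotypes. Of 5 red blood cell genes, 5 were called higher in Nf1-KO skin and 4 in control skin.

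Together the 49 members took 1.04%, 0.690% and 0.741% of the counts in Nf1-KO injured libraries 1, 2 and 3, against 0.0429%, 0.0380% and 0.1004% in Nf1-KO uninjured libraries. In control skin they took 0.670%, 1.71% and 0.385% in the injured libraries, against 0.244%, 0.149% and 0.184% in the uninjured libraries. Every injured library stood above every uninjured library of its genotype. Control injured library 2 held the highest value of the control injured group for all 49 members, and the highest of all 12 libraries for 43. Among the Nf1-KO uninjured libraries, library 3 was the highest for 34 members. In whole skin, fewer muscle cells and less RNA per cell cannot be told apart. The levels by role and library show the same separation of injured from uninjured skin in each of the 7 roles.

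**Figure D1:**
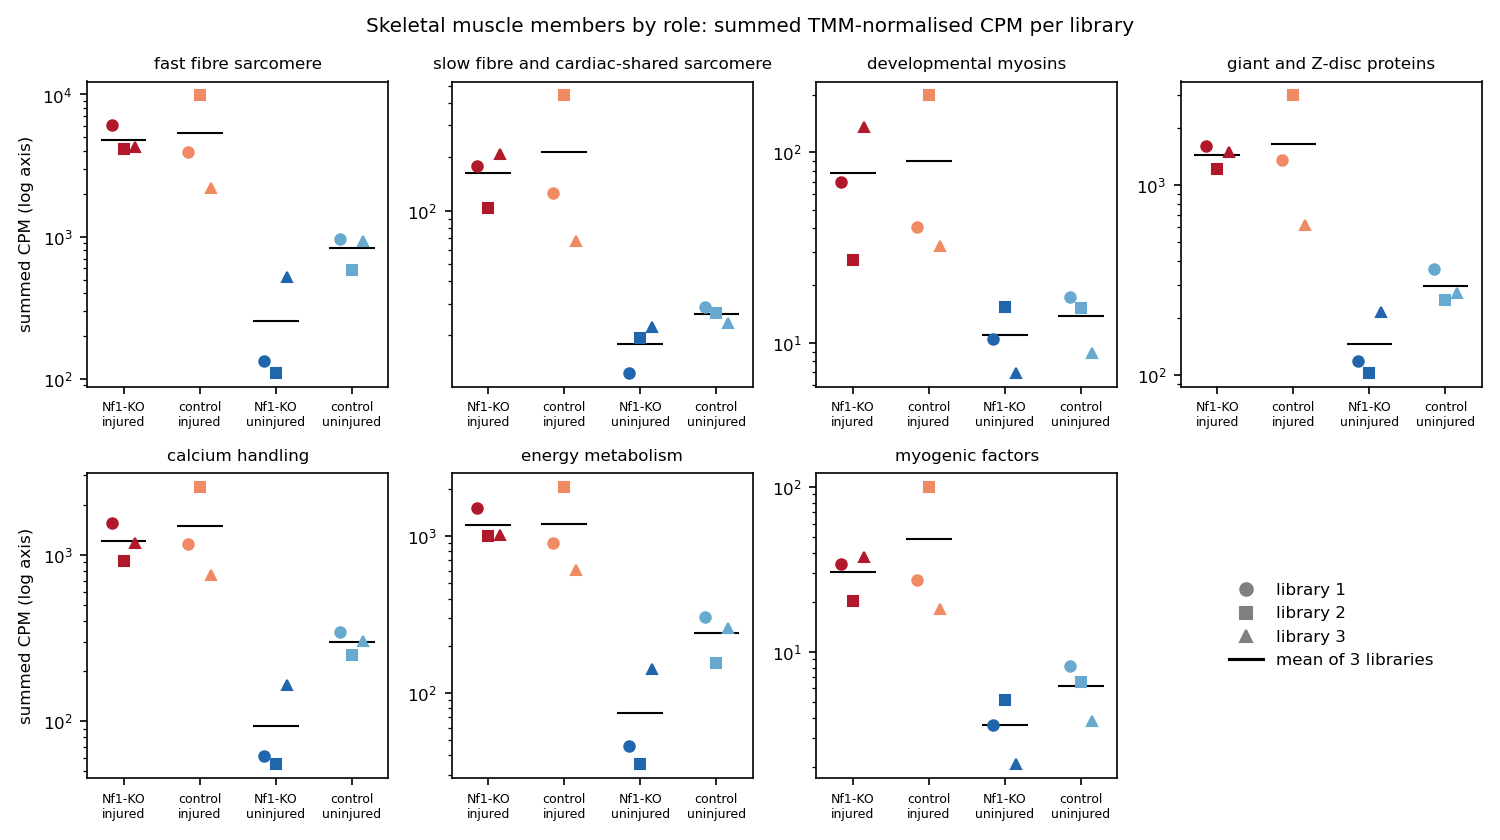
Summed TMM-normalised CPM (log axis) of the members of each role, by group on the horizontal axis; points are single libraries, with a circle, square or triangle for library 1, 2 or 3, and the line is the mean of 3 libraries. In the fast fibre sarcomere panel every injured library stands above every uninjured library, and control injured library 2 is the highest point of every panel.

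Injury was compared within each genotype, to ask how skin at 14 days post-injury differed from intact skin. In both genotypes most skeletal muscle genes rose, across fast fibre, calcium, energy and Z-disc roles, and 0 members were called lower. In Nf1-KO skin 43 of the 49 members were called higher at an adjusted p under 0.05 (edgeR), where 37.4% of all genes tested were called (19.1% higher and 18.4% lower). In control skin 41 members were called higher, where 55.3% of all genes tested were called (22.8% higher and 32.5% lower). The labels do not say that libraries of a group came from separate animals, so p-values measure the spread between these libraries. The median log2 fold change of the members was 3.61 in Nf1-KO skin, with −0.09 over all genes tested, and 2.63 in control skin, with −0.21 over all genes tested. Injured and uninjured libraries did not overlap for 43 members in Nf1-KO skin, beside 23.6% of all genes with injured libraries higher and 27.9% with them lower. They did not overlap for 40 members in control skin, beside 25.8% higher and 36.6% lower, and in each of these members the injured libraries were higher. The 6 members not called in either genotype were Myh7, Myl2, Myl3, Myh3, Myf5 and Pax7, and Myh4 and Myl1 were called in Nf1-KO skin but not in control skin. That contrast depended on the fit: in control skin Myh4 was called when only the compared groups entered the fit, and Myl1 was called by limma voom and without Nf1-KO uninjured library 3. Pax7 in control skin was the only member lower at an unadjusted p under 0.05, and limma voom and DESeq2 also called 0 members lower in either genotype. Pax7 was called lower in control skin without a filter, without control uninjured library 3 and without control injured library 2. The calls in control skin depended in part on which libraries entered the fit. Control uninjured libraries 1 and 2 had the highest receptor background, whose part in the calls was not tested. A fit without them left 1 control uninjured library, so its calls are not given. In that fit the median log2 fold change of the members in control skin was 2.75, and 48 of 49 were positive. When the fit was adjusted for that ribosomal share, 7 of the 49 (14.3%) were called in control skin, with a median of 2.09. Of all genes, 11.8% were then called higher and 28.1% in either direction, so the members' share was near the background. The ribosomal share was 2.00% to 4.21% in control injured and 0.931% to 1.16% in control uninjured libraries, without overlap. In control skin the ribosomal share and injury therefore cannot be told apart. In Nf1-KO skin the ranges overlapped, at 1.75% to 4.15% in injured and 1.39% to 2.26% in uninjured libraries. Without control injured library 2 there were 32 called higher and 4 called lower, with a median of 1.72, beside 20.2% and 30.2% of all genes. In Nf1-KO skin 37 members were called higher with the ribosomal adjustment, beside 13.3% of all genes. Without control injured library 2 there were 44, beside 18.4% of all genes. That fit left out no Nf1-KO library, and neither did the fit without control uninjured libraries 1 and 2. These 2 fits therefore test the Nf1-KO calls little. Of the control calls, 13 were lost in at least 1 of the 12 fits that left out a library (Actn3, Ampd1, Ckm, Des, Jph1, Jph2, Mybpc2, Myh2, Myl4, Myot, Myoz1, Pvalb and Tnni2), and of the Nf1-KO calls 4 were (Myh2, Myl1, Myl4 and Tnnt1).

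**Figure D2:**
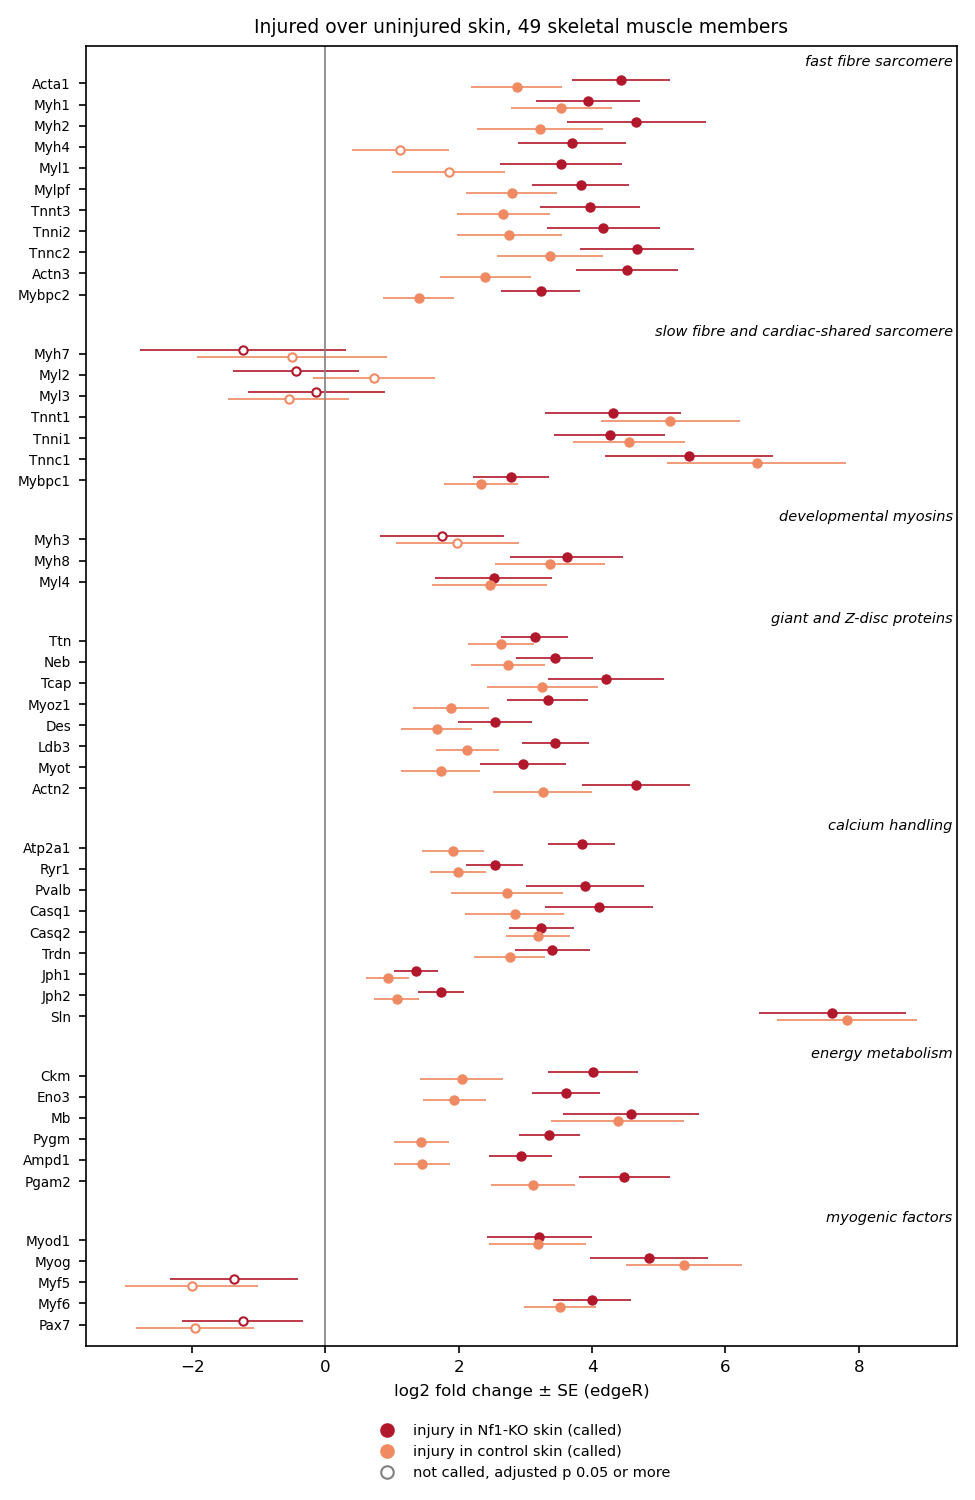
Log2 fold change ± SE of each of the 49 members (rows, grouped by role) for injury in Nf1-KO skin (dark red, upper) and injury in control skin (orange, lower); filled points are called at adjusted p under 0.05 and open points are not. Nearly all members lie right of 0 and Sln lies farthest right. Myh7, Myl3, Myf5 and Pax7 lie left of 0 with open points in both genotypes, and so does Myl2 in Nf1-KO skin alone.

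The fast fibre sarcomere genes rose in 11 of 11 cases in Nf1-KO skin and in 9 of 11 in control skin, with median log2 fold changes of 3.97 and 2.76. Acta1, skeletal alpha-actin and the member with the highest level per kb of exon (753 CPM per kb over the 12 libraries), measured 2289, 2075 and 1556 CPM in Nf1-KO injured libraries, against 49.9, 42.3 and 181 CPM in Nf1-KO uninjured libraries. In control skin Acta1 measured 1514, 4389 and 854 CPM in injured libraries, against 329, 229 and 366 CPM in uninjured libraries. The groups did not overlap in either genotype, and the lowest injured value was that of control injured library 3. Acta1 rose by a log2 fold change of 4.44 ± 0.73 (SE) in Nf1-KO skin (edgeR adjusted p = 0.00104) and of 2.87 ± 0.68 in control skin (edgeR adjusted p = 0.00483).

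Tnnc2, fast troponin C, came second per kb at 529 CPM per kb. It measured 1229, 417 and 888 CPM in Nf1-KO injured libraries, against 15.3, 12.3 and 71.7 CPM in Nf1-KO uninjured libraries. In control skin Tnnc2 measured 758, 1168 and 306 CPM in injured libraries, against 97.1, 48.0 and 70.8 CPM in uninjured libraries. No injured value reached down to the uninjured ones. The log2 fold changes were 4.67 ± 0.85 in Nf1-KO skin (edgeR adjusted p = 0.00258) and 3.37 ± 0.80 in control skin (edgeR adjusted p = 0.00588). Of the exonic bases of Tnnc2, 74.0% overlap Ube2c, a cell cycle gene on the opposite strand, and these libraries do not mark strand, so the level of Tnnc2 is uncertain. Mb shares 27.6% of its exonic bases with opposite-strand Gm49540, Atp2a1 21.9% with Rabep2 and Ckm 15.5% with A930016O22Rik.

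Myh4, the myosin heavy chain of the fastest fibres, measured 271, 91.3 and 286 CPM in Nf1-KO injured libraries, against 10.8, 3.45 and 35.9 CPM in Nf1-KO uninjured libraries. In control skin Myh4 measured 201, 289 and 199 CPM in injured libraries, against 114, 60.6 and 141 CPM in uninjured libraries. The control groups came close without overlapping, while the Nf1-KO groups were far apart. Myh4 rose by 3.70 ± 0.81 in Nf1-KO skin (edgeR adjusted p = 0.00733) and had a log2 fold change of 1.13 ± 0.73 in control skin (edgeR adjusted p = 0.219). Myl1, a fast essential light chain, measured 200, 175 and 119 CPM in Nf1-KO injured libraries, against 6.63, 6.44 and 29.7 CPM in Nf1-KO uninjured libraries. In control skin Myl1 measured 83.8, 486 and 86.7 CPM in injured libraries, against 71.4, 32.8 and 78.1 CPM in uninjured libraries. Control injured library 2 stood far above both of its partners, which lay just above the uninjured libraries. Its log2 fold changes were 3.53 ± 0.92 in Nf1-KO skin (edgeR adjusted p = 0.0165) and 1.85 ± 0.85 in control skin (edgeR adjusted p = 0.0933). The other fast genes, Myh1 and Myh2 for other fast heavy chains, Mylpf for the regulatory light chain, Tnnt3 and Tnni2 for troponins T and I, Actn3 for fast fibre alpha-actinin and Mybpc2 for fast myosin-binding protein C, were called in both genotypes. The control call of Mybpc2 is weak (edgeR adjusted p = 0.0471): it was lost in 8 of the 12 fits that left out a library, with median-of-ratios scaling, without a filter and with the replicate block. The log2 fold changes of these genes ran from 3.23 (Mybpc2) to 4.67 (Myh2) in Nf1-KO skin and from 1.40 (Mybpc2) to 3.54 (Myh1) in control skin.

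The slow fibre and cardiac-shared genes divided by kind: the troponins and Mybpc1 rose in both genotypes, and the heavy and light chains did not pass the test. Tnnc1, the troponin C of slow fibres and heart, measured 16.7, 3.88 and 48.0 CPM in Nf1-KO injured libraries, against 0.179, 0.536 and 0.813 CPM in Nf1-KO uninjured libraries. In control skin Tnnc1 measured 13.0, 62.4 and 9.89 CPM in injured libraries, against 0.658, 0.307 and 0.0631 CPM in uninjured libraries. The groups were far apart, although Tnnc1 varied more than 10-fold among the Nf1-KO injured libraries and its uninjured levels rest on 18 and 12 counts over 3 libraries in Nf1-KO and control skin. Tnnc1 rose by 5.46 ± 1.27 in Nf1-KO skin (edgeR adjusted p = 0.00974) and by 6.47 ± 1.34 in control skin (edgeR adjusted p = 0.00332). Mybpc1, slow myosin-binding protein C, measured 87.1, 63.5 and 54.4 CPM in Nf1-KO injured libraries, against 7.79, 9.73 and 12.2 CPM in Nf1-KO uninjured libraries. In control skin Mybpc1 measured 75.5, 154 and 21.4 CPM in injured libraries, against 14.5, 15.7 and 19.5 CPM in uninjured libraries. Control injured library 3 stood just above the uninjured range, and all other injured libraries stood well above it. Mybpc1 rose by 2.79 ± 0.57 in Nf1-KO skin (edgeR adjusted p = 0.00435) and by 2.33 ± 0.56 in control skin (edgeR adjusted p = 0.00545).

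Tnnt1 and Tnni1, slow troponins T and I, rose by log2 fold changes of 4.32 and 4.26 in Nf1-KO skin and of 5.17 and 4.56 in control skin. Myh7, the slow heavy chain that is also the cardiac beta chain, measured 0.0705 to 2.93 CPM in Nf1-KO injured libraries, against 1.08 to 3.07 CPM in Nf1-KO uninjured libraries. It measured 0 to 6.78 CPM in control injured libraries, against 1.64 to 4.42 CPM in control uninjured libraries. The injured and uninjured groups overlapped in both genotypes. Its log2 fold changes were −1.24 ± 1.54 in Nf1-KO skin (edgeR adjusted p = 0.550) and −0.50 ± 1.43 in control skin (edgeR adjusted p = 0.791). Myl2 and Myl3, light chains of slow fibres and ventricle, stayed below 5 CPM in every library and were not called, with log2 fold changes between −0.55 and 0.73. Control injured library 2 held 107 Myh7 counts, where libraries 1 and 3 of that group held 0 and 3, and without library 2 Myh7, Myl3, Myf5 and Pax7 were called lower in control skin.

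Of the developmental myosins, Myh8 and Myl4 rose and Myh3 did not pass the test in either genotype. Myh8, the perinatal heavy chain, measured 35, 13.7 and 58.7 CPM in Nf1-KO injured libraries, against 2.51, 3.30 and 2.89 CPM in Nf1-KO uninjured libraries. In control skin Myh8 measured 19.3, 85.7 and 12.5 CPM in injured libraries, against 4.70, 4.76 and 2.02 CPM in uninjured libraries. All injured libraries were higher than all uninjured ones. Myh8 rose by 3.62 ± 0.84 in Nf1-KO skin (edgeR adjusted p = 0.00933) and by 3.37 ± 0.82 in control skin (edgeR adjusted p = 0.00689). Myl4, an embryonic and atrial light chain, measured 29.8, 10.4 and 61.6 CPM in Nf1-KO injured libraries, against 6.45, 8.89 and 2.17 CPM in Nf1-KO uninjured libraries. In control skin Myl4 measured 19.5, 90.2 and 16.5 CPM in injured libraries, against 9.31, 8.14 and 5.55 CPM in uninjured libraries. The groups did not overlap in either genotype, and Nf1-KO injured library 2 came closest to the uninjured range of its genotype. Myl4 rose by 2.52 ± 0.88 in Nf1-KO skin (edgeR adjusted p = 0.0488) and by 2.46 ± 0.86 in control skin (edgeR adjusted p = 0.0364). The call of Myl4 is weak: 9 of the 12 fits that left out a library lost it in Nf1-KO skin, and 6 of 12 in control skin.

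Myh3, the embryonic heavy chain, measured 4.94, 3.03 and 14.97 CPM in Nf1-KO injured libraries, against 1.52, 3.30 and 1.90 CPM in Nf1-KO uninjured libraries. In control skin Myh3 measured 1.87, 22.5 and 3.14 CPM in injured libraries, against 3.48, 2.30 and 1.32 CPM in uninjured libraries. Its groups overlapped in both genotypes, and Nf1-KO injured library 3 and control injured library 2 stood above the rest. Its log2 fold changes were 1.75 ± 0.93 in Nf1-KO skin (edgeR adjusted p = 0.157) and 1.98 ± 0.92 in control skin (edgeR adjusted p = 0.0913). Myh3 was called higher in Nf1-KO skin without control injured library 2, and in control skin without control injured library 1 or 3. The skeletal heavy chain genes Myh3, Myh2, Myh1, Myh4 and Myh8 lie in that order on the plus strand of chromosome 11, between 67078300 and 67308634 on GRCm38. They are close in sequence: 26.7% of the 50-base windows of Myh1, 26.9% of Myh2, 18.9% of Myh4, 21.4% of Myh8 and 4.81% of Myh3 occur in another gene. Likewise 23.4% of the windows of Myl1 occur in another gene, mostly a pseudogene, and 22.2% of those of Myh7, mostly in Myh6. How the authors' counting split such reads is not given in the sources used here, so levels of these genes are uncertain.

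The 8 giant and Z-disc proteins were called higher in both genotypes, with median log2 fold changes of 3.38 in Nf1-KO skin and 2.38 in control skin. Tcap, a titin cap protein of the Z-disc, measured 409, 289 and 297 CPM in Nf1-KO injured libraries, against 6.00, 9.43 and 38.6 CPM in Nf1-KO uninjured libraries. In control skin Tcap measured 222, 690 and 121 CPM in injured libraries, against 51.9, 27.3 and 29.2 CPM in uninjured libraries. The groups did not overlap. Tcap rose by 4.21 ± 0.87 in Nf1-KO skin (edgeR adjusted p = 0.00558) and by 3.25 ± 0.83 in control skin (edgeR adjusted p = 0.00894). Des, the intermediate filament protein desmin, which smooth muscle also makes, measured 225, 209 and 198 CPM in Nf1-KO injured libraries, against 48.8, 24.4 and 35.2 CPM in Nf1-KO uninjured libraries. In control skin Des measured 163, 517 and 89.7 CPM in injured libraries, against 77.2, 63.2 and 101 CPM in uninjured libraries. Control injured library 3 lay within the uninjured range of its genotype, so the control groups overlapped. Des rose by 2.54 ± 0.55 in Nf1-KO skin (edgeR adjusted p = 0.00519) and by 1.67 ± 0.53 in control skin (edgeR adjusted p = 0.0211). The remaining 6, the molecular spring titin (Ttn), the thin filament ruler nebulin (Neb), Actn2 and the Z-disc proteins Myoz1, Ldb3 and Myot, had log2 fold changes of 2.96 (Myot) to 4.67 (Actn2) in Nf1-KO skin and 1.73 (Myot) to 3.26 (Actn2) in control skin.

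All 9 calcium handling genes were called higher in both genotypes. Pvalb, the calcium buffer parvalbumin of fast fibres, measured 395, 93.7 and 229 CPM in Nf1-KO injured libraries, against 6.72, 4.44 and 37.2 CPM in Nf1-KO uninjured libraries. In control skin Pvalb measured 248, 340 and 151 CPM in injured libraries, against 51.6, 25.3 and 34.9 CPM in uninjured libraries. Every injured library was above every uninjured library. Pvalb rose by 3.90 ± 0.89 in Nf1-KO skin (edgeR adjusted p = 0.00918) and by 2.73 ± 0.84 in control skin (edgeR adjusted p = 0.0215). Atp2a1, the fast fibre calcium pump of the sarcoplasmic reticulum, measured 684, 558 and 549 CPM in Nf1-KO injured libraries, against 25.5, 23.9 and 75.5 CPM in Nf1-KO uninjured libraries. In control skin Atp2a1 measured 548, 1188 and 371 CPM in injured libraries, against 198, 159 and 202 CPM in uninjured libraries. The groups were separate, and Nf1-KO uninjured libraries were the lowest of all. Atp2a1 rose by 3.84 ± 0.51 in Nf1-KO skin (edgeR adjusted p = 0.000115) and by 1.91 ± 0.47 in control skin (edgeR adjusted p = 0.00436).

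Sln, the pump inhibitor sarcolipin, had the highest fold change of the 49 members in both genotypes and is described for that reason, chosen after its values were seen. It measured 110, 43.1 and 102 CPM in Nf1-KO injured libraries, against 0.269, 0.230 and 0.813 CPM in Nf1-KO uninjured libraries. In control skin Sln measured 69.0, 357 and 61.4 CPM in injured libraries, against 1.60, 0.307 and 0.379 CPM in uninjured libraries. The lowest injured value was 43.1 CPM and the highest uninjured value 1.60 CPM. Sln rose by 7.61 ± 1.10 in Nf1-KO skin (edgeR adjusted p = 0.000809) and by 7.83 ± 1.05 in control skin (edgeR adjusted p = 0.000412). Its uninjured levels rest on 15 counts in Nf1-KO skin and 27 counts in control skin. The other 6 calcium handling genes rose in both genotypes: the release channel gene Ryr1, the calcium-binding proteins Casq1 and Casq2, triadin (Trdn), and the junction proteins Jph1 and Jph2, whose fold changes were the smallest of the called members. Jph1 rose by 1.36 in Nf1-KO skin and 0.93 in control skin on the log2 scale, Jph2 by 1.73 and 1.07, and Casq1, which rose by 4.11 in Nf1-KO skin, rose by 2.84 in control skin.

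All 6 energy metabolism genes were called higher in both genotypes, with median log2 fold changes of 3.81 in Nf1-KO skin and 1.99 in control skin. Pgam2, a muscle glycolytic mutase, measured 274, 111 and 173 CPM in Nf1-KO injured libraries, against 4.03, 4.06 and 16.9 CPM in Nf1-KO uninjured libraries. In control skin Pgam2 measured 181, 204 and 76.0 CPM in injured libraries, against 22.4, 12.4 and 18.4 CPM in uninjured libraries. The groups did not overlap. Pgam2 rose by 4.49 ± 0.68 in Nf1-KO skin (edgeR adjusted p = 0.00081) and by 3.12 ± 0.63 in control skin (edgeR adjusted p = 0.00253). Ckm, muscle creatine kinase, measured 692, 522 and 469 CPM in Nf1-KO injured libraries, against 21.2, 11.9 and 71.2 CPM in Nf1-KO uninjured libraries. In control skin Ckm measured 396, 878 and 336 CPM in injured libraries, against 169, 81.2 and 141 CPM in uninjured libraries. The control uninjured values of Ckm all lay above those of Nf1-KO uninjured skin, and below every injured value. Ckm rose by 4.01 ± 0.68 in Nf1-KO skin (edgeR adjusted p = 0.00137) and by 2.04 ± 0.62 in control skin (edgeR adjusted p = 0.0178). Myoglobin (Mb), which stores oxygen in muscle, rose by 4.59 in Nf1-KO skin and 4.38 in control skin, and the remaining genes, the enolase gene Eno3, the glycogen phosphorylase gene Pygm and the AMP deaminase gene Ampd1, rose by 2.93 to 3.61 in Nf1-KO skin and by 1.44 to 1.93 in control skin.

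Among the myogenic factors, Myod1, Myog and Myf6 rose in both genotypes and Myf5 and Pax7 did not pass the test. Myog, myogenin, measured 10.1, 6.07 and 13.8 CPM in Nf1-KO injured libraries, against 0.269, 0.690 and 0 CPM in Nf1-KO uninjured libraries. In control skin Myog measured 8.35, 32.2 and 4.54 CPM in injured libraries, against 0.376, 0.230 and 0.442 CPM in uninjured libraries. The uninjured levels, at 12 and 14 counts over 3 libraries in Nf1-KO and control skin, lay below every injured library. Myog rose by 4.86 ± 0.88 in Nf1-KO skin (edgeR adjusted p = 0.0013) and by 5.38 ± 0.88 in control skin (edgeR adjusted p = 0.000452). Myf6, found in maturing fibres, measured 16.7, 10.8 and 18.9 CPM in Nf1-KO injured libraries, against 0.896, 1.15 and 0.813 CPM in Nf1-KO uninjured libraries. In control skin Myf6 measured 13.2, 49.96 and 9.36 CPM in injured libraries, against 1.88, 2.00 and 2.40 CPM in uninjured libraries. It was the most abundant of the 5 factors per kb in every group, at a mean of 12.2 CPM per kb in Nf1-KO injured skin and 19.1 in control injured skin, against 0.754 in Nf1-KO uninjured skin and 1.66 in control uninjured skin. Myog came second in both injured groups, at 6.68 CPM per kb in Nf1-KO and 10.05 in control skin, and was below Myod1 and Myf5 in Nf1-KO uninjured skin (0.214) and the lowest of the 5 in control uninjured skin (0.234). Myf6 rose by 3.99 ± 0.58 in Nf1-KO skin (edgeR adjusted p = 0.000163) and by 3.52 ± 0.54 in control skin (edgeR adjusted p = 0.00021).

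Myod1, the myoblast factor, measured 6.47, 2.75 and 4.39 CPM in Nf1-KO injured libraries, against 0.448, 0.460 and 0.542 CPM in Nf1-KO uninjured libraries. In control skin Myod1 measured 5.42, 16.7 and 4.08 CPM in injured libraries, against 1.79, 1.15 and 0.0631 CPM in uninjured libraries. No injured value overlapped an uninjured one. Myod1 rose by 3.21 ± 0.79 in Nf1-KO skin (edgeR adjusted p = 0.00626) and by 3.18 ± 0.73 in control skin (edgeR adjusted p = 0.00246). Myf5 measured 0.321, 0.564 and 0 CPM in Nf1-KO injured libraries, against 0.806, 1.23 and 0.361 CPM in Nf1-KO uninjured libraries. In control skin Myf5 measured 0, 0.443 and 0.134 CPM in injured libraries, against 1.22, 0.921 and 0.442 CPM in uninjured libraries. The groups overlapped in both genotypes, at 0 to 16 counts a library. Its log2 fold changes were −1.38 ± 0.96 in Nf1-KO skin (edgeR adjusted p = 0.264) and −2.01 ± 0.99 in control skin (edgeR adjusted p = 0.0966).

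Pax7, the satellite cell factor, measured 0.577, 0.0705 and 0.689 CPM in Nf1-KO injured libraries, against 1.17, 1.61 and 0.361 CPM in Nf1-KO uninjured libraries. In control skin Pax7 measured 0.533, 0.823 and 0.0668 CPM in injured libraries, against 2.92, 2.30 and 0.442 CPM in uninjured libraries. The highest values were those of control uninjured libraries 1 and 2, the same libraries that had the highest receptor background. The part of that background in the Pax7 values was not tested. Without these libraries 1 control uninjured library was left, with 7 Pax7 counts. The log2 fold change of Pax7 in control skin was then 0.11. It was −1.74 and called lower without a filter (edgeR adjusted p = 0.0463), −2.32 and called without control uninjured library 3 (edgeR adjusted p = 0.0298), and −2.62 and called without control injured library 2 (edgeR adjusted p = 0.0493). With all libraries it was −1.24 ± 0.91 in Nf1-KO skin (edgeR adjusted p = 0.287) and −1.95 ± 0.88 in control skin (edgeR adjusted p = 0.0708). These levels rest on 1 to 31 Pax7 counts a library.

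**Figure D3:**
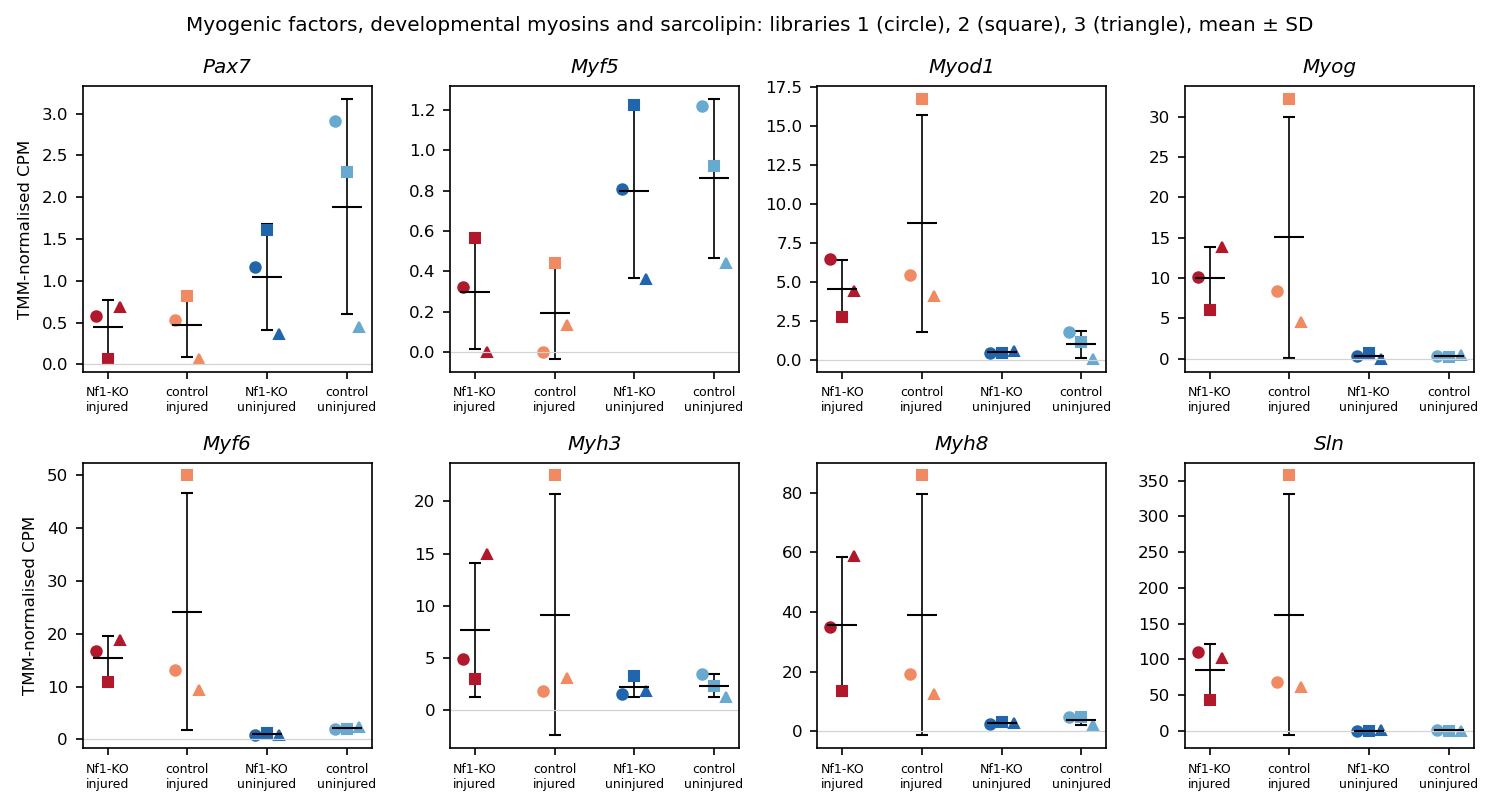
TMM-normalised CPM of the 5 myogenic factors, Myh3, Myh8 and Sln by group; points are libraries 1 (circle), 2 (square) and 3 (triangle), and the bar and whiskers are the mean ± SD. Myod1, Myog, Myf6, Myh8 and Sln are near 0 in both uninjured groups and higher in all injured libraries, while Pax7 and Myf5 stay below 3 CPM everywhere.

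Nf1-KO skin was set against control skin in each state, to ask whether the genotype alone went with a difference in muscle transcripts. In uninjured skin 45 of the 49 members had a lower estimate in Nf1-KO skin, with a median log2 fold change of −1.12, beside −0.04 over all genes tested, but 0 members were called (edgeR), beside 0.0296% of all genes tested (0.0254% higher and 0.00423% lower). At an unadjusted p under 0.05 there were 16 members (32.7%), beside 8.34% of all genes tested. limma voom called 0 members, of 1 gene called in all, and DESeq2 called 3 members, Atp2a1, Pygm and Mybpc2, of 60 genes called in all. For 24 members every Nf1-KO uninjured library was below every control uninjured library, beside 6.04% of all genes tested, and for 0 members the reverse held, beside 8.79%. The 24 were 7 fast fibre genes, 6 Z-disc genes, 5 calcium handling genes, 4 energy metabolism genes, Mybpc1 and Myf6. Other lists moved in uninjured skin as well, each with 0 genes called (edgeR). A list of further skeletal muscle genes, 45 of them tested, had a median of −0.71. Its summed CPM was 533 to 742 in Nf1-KO uninjured libraries, against 792 to 968 in control uninjured libraries. The list for satellite cells, myoblast fusion and differentiation had a median of −0.31, and the neuromuscular junction list −0.33. The smooth muscle list had a median of −0.74, at 288 to 473 summed CPM in Nf1-KO uninjured libraries, against 442 to 605 in control uninjured libraries. The cardiac list had a median of −0.46, the brown adipocyte list −0.45, the growing hair follicle list 1.06, the white adipocyte list −0.11, the red blood cell list −0.09 and the basal keratinocyte list −0.08. The part of these cell types in the members' estimates was not tested.

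Atp2a1 had the smallest p of the members in uninjured skin. It measured 25.5, 23.9 and 75.5 CPM in Nf1-KO uninjured libraries, against 198, 159 and 202 CPM in control uninjured libraries. The control libraries were alike, and Nf1-KO uninjured library 3 lay between them and the other Nf1-KO libraries. Its log2 fold change was −2.16 ± 0.47 (edgeR adjusted p = 0.348), and without Nf1-KO uninjured library 3 it was −2.91 and called (edgeR adjusted p = 0.023). Pygm and Ampd1 came next and were chosen for that after their values were seen. Pygm measured 6.90, 6.28 and 16.2 CPM in Nf1-KO uninjured libraries, against 48.3, 25.4 and 40.1 CPM in control uninjured libraries, a log2 fold change of −1.96 ± 0.44 (edgeR adjusted p = 0.376). Ampd1 measured 1.70, 1.15 and 1.17 CPM in Nf1-KO uninjured libraries, against 6.30, 3.07 and 4.29 CPM in control uninjured libraries, a log2 fold change of −1.75 ± 0.47 (edgeR adjusted p = 0.448). In each of these genes all Nf1-KO uninjured libraries were below all control uninjured libraries. Pygm and Ampd1 were called without the expression filter, beside 0.441% of all genes in that fit. The genes with the most negative estimates were Myh4 at −2.66 ± 0.78 and Actn3 at −2.63 ± 0.73. By contrast the slow troponin genes Tnnc1, Tnnt1 and Tnni1 had estimates of 0.69, 0.10 and 0.01, with SEs of 0.85 to 1.72. All members of the fast fibre, Z-disc, calcium handling, energy metabolism, developmental and myogenic roles had lower estimates, with medians of −1.76, −1.35, −0.85, −1.63, −0.38 and −0.82, and the slow and cardiac-shared genes had a median of 0.01 with 3 of 7 lower. That contrast between roles was not tested.

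In injured skin 43 of the 49 members had a lower estimate in Nf1-KO skin, and the estimates were smaller. The members had a median log2 fold change of −0.27 in Nf1-KO skin relative to control skin, beside 0.12 over all genes tested, and the estimates ran from −1.24 (Myh7) to 0.55 (Myf5). There were 0 members called (edgeR), beside 0% of all genes tested, and 0 members had an unadjusted p under 0.05, beside 10.7% of all genes. limma voom and DESeq2 also called 0 members, where they called 1 and 108 genes in all. The Nf1-KO and control injured libraries overlapped for all 49 members, where 6.37% of all genes did not overlap with Nf1-KO higher and 2.67% with Nf1-KO lower. Summed CPM of the members averaged 8928 ± 1878 in Nf1-KO injured skin and 10010 ± 7276 in control injured skin (SD, n = 3 each), and 601 ± 410 in Nf1-KO uninjured skin and 1704 ± 380 in control uninjured skin. The spread in control injured skin came mainly from library 2, at 18200 summed CPM, where libraries 1 and 3 had 7551 and 4286. Myod1 had the smallest p, at a log2 fold change of −0.95 ± 0.64 (edgeR adjusted p = 0.690). A p that misses the threshold does not show that the genotypes were alike.

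**Figure D4:**
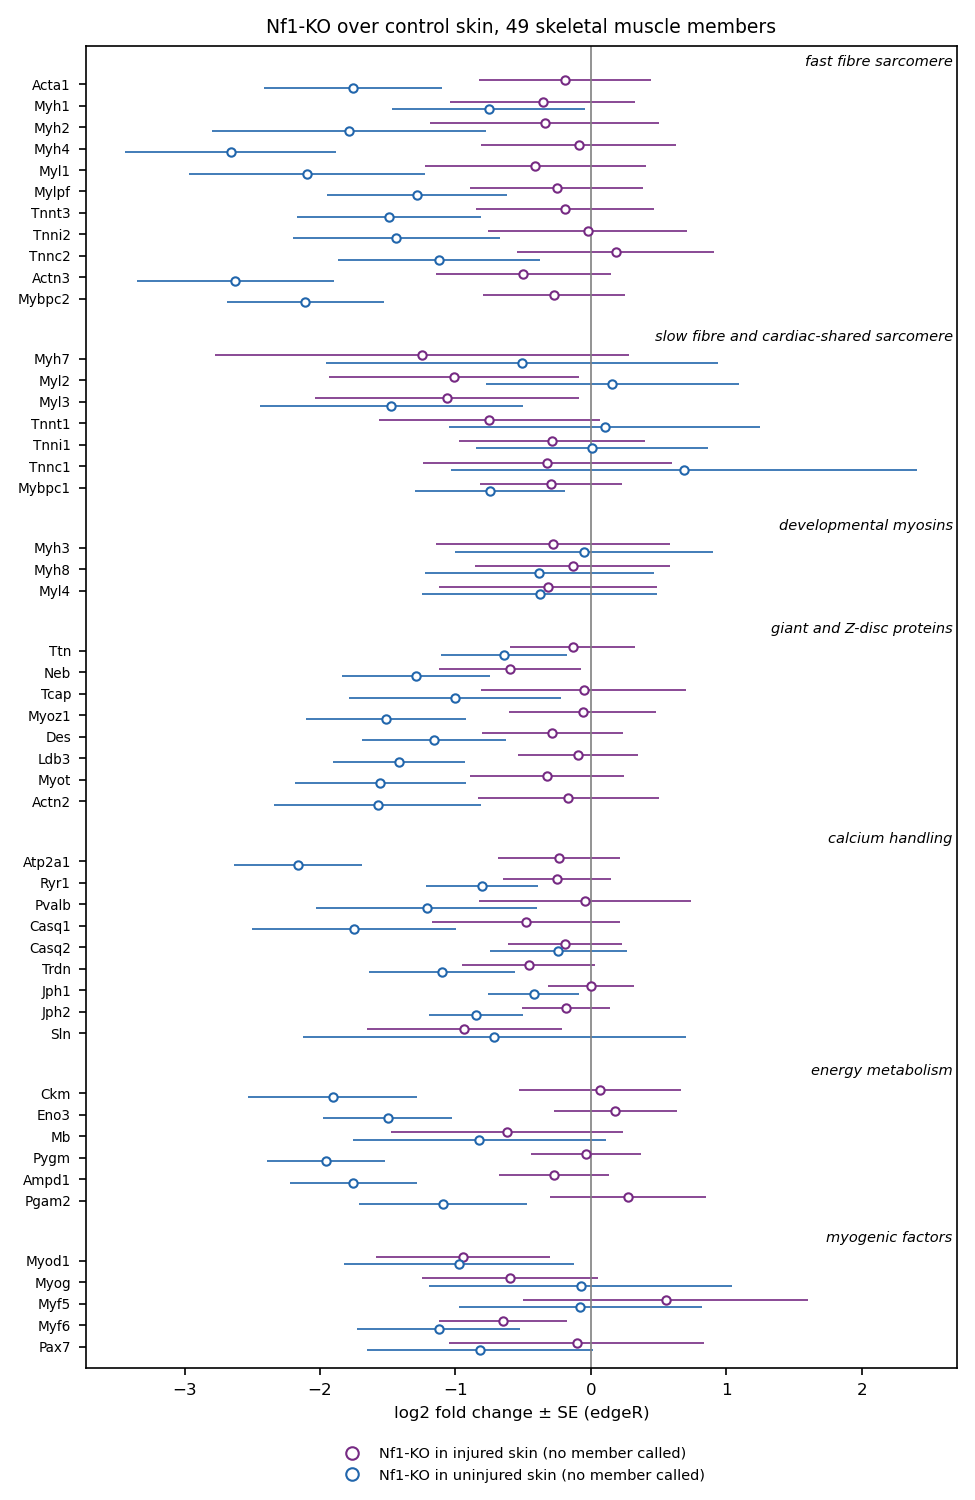
Log2 fold change ± SE of each of the 49 members (rows, grouped by role) for Nf1-KO over control in injured skin (purple, upper) and in uninjured skin (blue, lower); all points are open because 0 members were called. In uninjured skin 45 of 49 points lie left of 0, with Myh4 and Actn3 farthest left, and in injured skin most points lie near 0.

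The difference between the injury responses, that of Nf1-KO skin minus that of control skin, was tested as an interaction. It was above 0 for 41 of the 49 members, with a median of 0.71 on the log2 scale, beside 0.17 over all genes tested. There were 0 members called (edgeR), beside 0% of all genes tested, and 7 members (14.3%) had an unadjusted p under 0.05, beside 10.8% of all genes, a share near the background. limma voom and DESeq2 also called 0 members, where they called 0 and 37 genes in all. The 7 were Pygm, Atp2a1, Eno3, Ampd1, Myh4, Mybpc2 and Ckm. Pygm had the smallest p, with an injury response of 3.36 in Nf1-KO skin and 1.44 in control skin and a difference of 1.92 ± 0.59 (edgeR adjusted p = 0.442). Myh4, called in Nf1-KO skin alone, had a difference of 2.57 ± 1.05 (edgeR adjusted p = 0.454), and Myl1, also called there alone, had one of 1.69 ± 1.18 (edgeR adjusted p = 0.619), so neither was shown to respond differently between genotypes. The interaction shares its libraries with the 4 comparisons it is made of, and the Nf1-KO uninjured libraries enter both the injury comparison of Nf1-KO skin and the comparison of uninjured genotypes.

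Shares within a library compare members with each other, per kb of exon, and are given as descriptions. Of the 6 myosin heavy chain genes, Myh4 made up 47.0%, 23.0% and 53.7% of the summed level per kb in Nf1-KO injured libraries, against 46.1%, 16.3% and 52.5% in Nf1-KO uninjured libraries. In control skin Myh4 made up 43.4%, 28.0% and 72.3% in injured libraries, against 77.3%, 59.4% and 80.3% in uninjured libraries. The Nf1-KO groups overlapped almost fully, and the control groups overlapped only through control injured library 3. Myh1 averaged 43.2% ± 16.6 in Nf1-KO injured libraries and 36.7% ± 6.49 in Nf1-KO uninjured libraries, and 39.5% ± 15.4 in control injured libraries and 17.3% ± 8.32 in control uninjured libraries (SD, n = 3 each). The embryonic and perinatal chains Myh3 and Myh8 together averaged 4.97% ± 3.09 in Nf1-KO injured libraries and 13.4% ± 9.31 in Nf1-KO uninjured libraries. In control skin they averaged 4.12% ± 2.02 in injured libraries and 3.31% ± 1.74 in uninjured libraries. The high share in Nf1-KO uninjured skin was 23.4% in library 2 and 11.9% in library 1, and rests on 320 and 288 counts over all 6 genes.

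**Figure D5:**
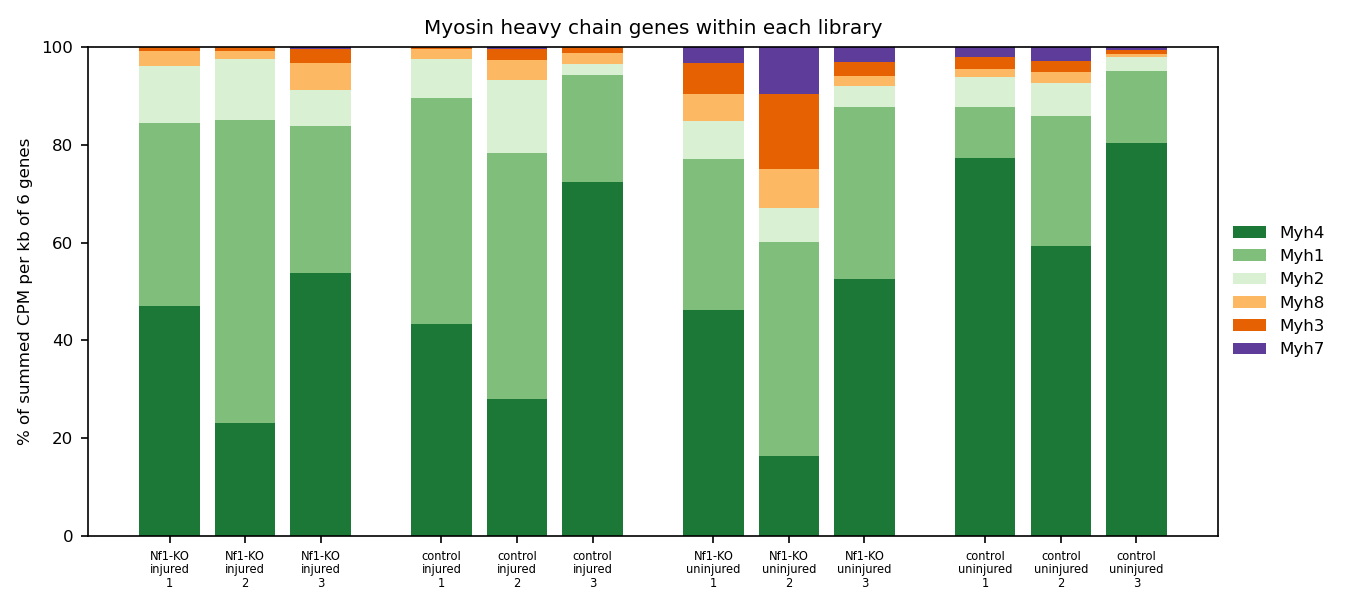
Share of 6 myosin heavy chain genes in their summed CPM per kb (percent, 0 to 100) in each of the 12 libraries, in groups from Nf1-KO injured at the left to control uninjured at the right. Myh4 and Myh1 together fill most of every bar, Myh3, Myh8 and Myh7 take their widest share in Nf1-KO uninjured library 2, and Myh4 reaches 80.3% in control uninjured library 3.

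The balance of Sln and the pump Atp2a1 that it inhibits differed by state in every library. Sln made up 29.9%, 16.9% and 32.9% of their summed level per kb in Nf1-KO injured libraries, against 2.70%, 2.47% and 2.76% in Nf1-KO uninjured libraries. In control skin it made up 24.9%, 44.2% and 30.4% in injured libraries, against 2.08%, 0.507% and 0.493% in uninjured libraries. All 6 injured libraries were above all 6 uninjured libraries. For the troponins, Tnni1 averaged 4.24% ± 1.99 of Tnni1 and Tnni2 in Nf1-KO injured libraries and 6.46% ± 4.81 in Nf1-KO uninjured libraries, and 4.41% ± 1.64 in control injured libraries and 1.49% ± 0.845 in control uninjured libraries. Fast troponin I thus exceeded slow troponin I in every library, and so did fast troponin T, with a Tnnt1 share of at most 6.27%.

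Other muscle genes, from lists that hold none of the 49 members, are given for the same comparisons. Of 45 further skeletal muscle genes tested, 35 were called higher and 1 lower in each genotype. Beside them, 19.1% of all genes were called higher in Nf1-KO skin and 22.8% in control skin. The list had median log2 fold changes of 2.84 in Nf1-KO skin and 2.14 in control skin. The 4 with the highest level per kb were the tropomyosin genes Tpm2 and Tpm1 and the muscle cytochrome oxidase subunits Cox6a2 and Cox8b, which rose by 2.78, 1.97, 4.58 and 4.12 in Nf1-KO skin and by 2.48, 1.61, 4.07 and 3.49 in control skin. The gene called lower was Fbxo32, a ubiquitin ligase gene of muscle atrophy, at −0.98 in Nf1-KO skin and −1.28 in control skin, named after its values were seen. Summed, the list reached 2402 to 3109 CPM in Nf1-KO injured libraries, against 533 to 742 CPM in Nf1-KO uninjured libraries, and 1740 to 4630 CPM in control injured libraries, against 792 to 968 CPM in control uninjured libraries.

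Of 23 genes listed for satellite cells, myoblast fusion and differentiation, 12 were called higher and 2 lower in Nf1-KO skin. In control skin 9 were called higher and 6 lower. Of all genes tested, 19.1% were called higher and 18.4% lower in Nf1-KO skin, and 22.8% and 32.5% in control skin. The 4 most abundant of the list per kb were Spg21, Mef2d, Mef2a and Dll1. Mef2a fell by 1.33 in Nf1-KO skin and by 1.95 in control skin, and Dll1, a Notch ligand gene, fell by 2.46 and 1.76. Which cells of the skin made these transcripts was not tested. Genes singled out after their values were seen included the fusion genes Mymk and Mymx. Mymk averaged 12.1 CPM in Nf1-KO injured libraries, against 0.528 CPM in Nf1-KO uninjured libraries, and 13.3 CPM in control injured libraries, against 0.401 CPM in control uninjured libraries. It rose by 4.51 ± 1.05 in Nf1-KO skin (edgeR adjusted p = 0.00786) and by 5.14 ± 1.09 in control skin (edgeR adjusted p = 0.0028), and Mymx rose by 3.51 and 3.18. Mstn, the growth inhibitor myostatin, fell by 2.38 in control skin (edgeR adjusted p = 0.0197) and had an estimate of 1.66 in Nf1-KO skin (edgeR adjusted p = 0.133). For the difference between injury responses 0 genes of this list were called (edgeR), beside 0% of all genes tested. Mstn was therefore not shown to respond differently between genotypes.

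Smooth and cardiac muscle genes were measured in the same comparisons. Of 12 smooth muscle genes, 3 were called higher and 4 lower in Nf1-KO skin and 2 higher and 4 lower in control skin, with medians of 0.08 and −0.12. In control skin these counts are near the 22.8% higher and 32.5% lower of all genes tested. In Nf1-KO skin 19.1% of all genes were called higher and 18.4% lower. Acta2, Tagln, Smtn and Actg2 were the most abundant of them per kb, and Tagln and Smtn were called higher in both genotypes. Of the 10 cardiac genes 7 were tested, with 2 called higher and 2 lower in Nf1-KO skin and 1 higher and 3 lower in control skin. The same shares of all genes stand beside these counts, which do not set so few genes apart. The cardiac heavy chain Myh6 averaged 0.277 CPM in Nf1-KO injured libraries and 0.232 CPM in control injured libraries, and the cardiac factor Nkx2-5 averaged 0.0287 and 0.0223 CPM there, near 0.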

How the data were processed

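Bulk RNA-seq libraries of mouse skin were analysed in 4 groups of 3. Per the labels' protocols, RNA was extracted with a fibrous tissue kit, amplified with SMART-Seq v4 and tagged with Nextera XT, a preparation that does not mark strand. The submitters' processing notes name STAR 2.5.2b, SAMtools, HTSeq 0.5.3, DESeq2, HOMER and mm10, without their roles. The annotation version, the strand setting and the handling of multiply mapped reads were not given in the sources used here. The authors deposited raw gene counts per library, whole numbers for 53379 Ensembl identifiers, of which 53274 matched GENCODE M21; the unmatched 105 held at most 0.0454% of a library's counts. A count column of no listed sample was not used. Replicates differed by more than counting noise (chi-square per degree of freedom 9.55 to 87.8 over 12 pairs within groups).

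From the deposited counts, all 12 libraries were fitted together with edgeR 4.0.16 (R 4.3.3; TMM, filterByExpr with a count minimum of 10, robust quasi-likelihood F test, 8 residual degrees of freedom). Benjamini-Hochberg adjustment ran over 23635 genes, with calls at an adjusted p under 0.05. A run on simulated data changed a small set of genes in control injured skin alone. It therefore does not test the fit where many genes differ, as they do here. The SE of an edgeR log2 fold change was derived from its test, as the absolute log2 fold change divided by the square root of its F statistic. Levels per kb use the union of exons. Library totals of 8817013 to 16809687 counts limit genes of few counts, and reads without molecular identifiers are not independent molecules.

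Values in every library are given for the 2 members of each role highest per kb, the developmental heavy chains, the myogenic factors and members whose call differed between injury comparisons; up to 4 genes of each other muscle list are named by level per kb. The 49 members, the lists and the alternatives were chosen with earlier results of these data known. The alternatives tried were a replicate block, median-of-ratios (DESeq2) size factors in edgeR, every gene with a count kept, only genes at 2 CPM or more in 3 libraries, the compared groups alone, limma 3.58.1 voom, DESeq2 1.42.0, a ribosomal RNA-like covariate, and fits without single libraries or without control uninjured libraries 1 and 2.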

Additional observations from a re-analysis of the deposited data

How the results depend on the processing

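Of the 49 members, 43 were called in the injury comparison of Nf1-KO skin and 41 in that of control skin. In Nf1-KO skin the count stayed between 37 and 44 under all 21 alternatives, 39 to 44 without single libraries, and 39 of the 43 calls were kept in all 12 fits without a library. In control skin it was 30 to 42 without single libraries, and 28 of the 41 calls were kept in all 12. Fits that left out only libraries of the other genotype kept every library of the comparison, so they test its calls little. The control count fell to 10 without control uninjured libraries 1 and 2 (1 library left, assumed to vary like the other groups) and to 7 with the ribosomal RNA-like covariate, and was 37 to 42 under the other alternatives. In both the cause was not tested, and in control skin the covariate and injury cannot be told apart. The 0 calls of Nf1-KO in uninjured skin became 2 without a filter (Pygm and Ampd1), beside 0.441% of all 49676 genes in that fit. They became 3 with DESeq2, beside 60 of 49676 genes, and 0 to 1 without single libraries. The 1 call came without Nf1-KO uninjured library 3, beside 0.0236% of all genes. The 0 calls of the difference between injury responses became 1 (Pygm) without a filter, beside 0.475% of all genes. Nf1-KO in injured skin had 0 under every alternative.

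Reversed estimates were all of members not called. In control skin Myh4 was −0.29 and Myf5 0.24 with the covariate, Myl2 was −0.12 with limma voom, and Myh7, Myl3 and Pax7 were 0.54, 1.44 and 0.11 without control uninjured libraries 1 and 2. Without single libraries, the control injury estimate ran from −4.74 to 0.11 for Myh7, from −1.65 to 1.33 for Myl2 and from −2.62 to 0.22 for Myl3, and the Nf1-KO estimate of Myl3 ran from −1.11 to 0.35. Median-of-ratios scaling moved the median of all genes for injury in Nf1-KO skin to −0.20, from −0.09 with TMM.

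Of 18 same-numbered pairs of libraries, 4 had a correlation of deviations over 0.1 (range −0.318 to 0.423). All 4 joined the genotypes within a state: uninjured libraries 2 (0.423) and 3 (0.225), and injured libraries 1 (0.282) and 2 (0.12). Uninjured libraries 1 and injured libraries 3 were at −0.0822 and −0.142. Some pairs of unlike number passed 0.1 too, as control injured 3 with Nf1-KO injured 2 (0.236). Pairing of the genotypes within a state was not tested, since the replicate block below spans both states. With the number as a replicate block, 42 members were called for injury in Nf1-KO skin and 38 in control skin, and 0 in each of the other comparisons. For the difference between injury responses the compared groups alone are all 4 groups, so that alternative was not run. Depth limits Pax7, Myf5 and Myh7, which had few counts in most libraries.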

Other observations

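Genes of the neuromuscular junction, the contact at which motor nerves reach muscle fibres, were measured in the same comparisons. Of 14 tested, 4 were called higher and 2 lower for injury in each genotype, with medians of 1.11 in Nf1-KO skin and 0.10 in control skin. Of all genes tested, 19.1% were called higher and 18.4% lower in Nf1-KO skin, and 22.8% and 32.5% in control skin. With 14 genes, these counts do not set the list apart from all genes. The most abundant per kb were Agrn, Ache, Rapsn and Chrnb1. Ache, the acetylcholinesterase gene, fell by 1.73 in Nf1-KO skin and by 1.84 in control skin. Chrnb1, a subunit of the muscle acetylcholine receptor, rose by 2.45 in Nf1-KO skin (edgeR adjusted p = 0.000641) and by 2.38 in control skin (edgeR adjusted p = 0.000561). Chrna1, another subunit, named after its values were seen, rose by 4.55 in Nf1-KO skin (edgeR adjusted p = 0.00602) and by 4.67 in control skin (edgeR adjusted p = 0.00256). Summed CPM of the list were 174 to 199 in Nf1-KO injured libraries, against 202 to 204 in Nf1-KO uninjured libraries, and 150 to 258 in control injured libraries, against 191 to 201 in control uninjured libraries.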
